A study of Mus musculus with 9 samples.

Results

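Ovaries exposed to CTX were set against ovaries that were not, with both exposed groups of the study taken as 1 group. CTX is the usual abbreviation of cyclophosphamide, an alkylating anticancer drug. The exposed group holds 6 libraries: 3 from mouse ovaries labelled CTX and 3 from ovaries labelled HBOT, which the study's design text describes as CTX with hyperbaric oxygen therapy, the breathing of oxygen under raised pressure. The unexposed group is 3 libraries labelled NC. All 9 are polyadenylated RNA of whole ovary, and the labels used here give no strain, age, dose or time after treatment. They do not say that the replicates came from separate animals either, so a p-value here reflects no more than how these libraries spread. A gene was tested where it reached 1 FPKM (fragments counted per length of transcript, scaled to the size of the library) in at least 3 of the 9 libraries, which held for 13338 of 22544 entries. It is called separated here where its 6 exposed values all lay above, or all below, its 3 NC values. That held for 988 genes, 612 with the exposed libraries higher and 376 with them lower.

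Cyclophosphamide is turned in the liver into metabolites that crosslink DNA, and damage to follicles is a known side effect in the ovary. A follicle is an oocyte with its granulosa cells, surrounded by theca cells; after ovulation these become the corpus luteum, which makes progesterone. Interferons, released by immune cells and by infected or damaged cells, switch on a shared set of genes in most tissues. Among them are the molecules that present peptides to T cells (MHC class I and class II) and a family of GTPases that attack intracellular microbes.

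The genes of these GTPases and of the MHC are among those with the widest distance between exposed and NC libraries, and stretches of their promoters are shown first, chosen because each holds the letters of a motif known from genes of its kind. The sequences are 100 bases each, 5′ to 3′ on the gene's own strand, from RefSeq on GRCm38.p6, an older build than the GRCm39 that the study used. In the first 5, capitals mark GAAA, any 2 bases and GAAA again, the core of the interferon-stimulated response element. In the last, capitals mark CTGATTGG, the Y box of class II promoters.
Tgtp1, chr11:48992269-48992368, minus strand: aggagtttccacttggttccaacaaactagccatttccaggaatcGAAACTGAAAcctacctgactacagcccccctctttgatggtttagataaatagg
Tgtp2, chr11:49064228-49064327, minus strand: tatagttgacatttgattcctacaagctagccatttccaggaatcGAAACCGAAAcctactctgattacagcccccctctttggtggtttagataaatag
Irgm1, chr11:48871421-48871520, minus strand: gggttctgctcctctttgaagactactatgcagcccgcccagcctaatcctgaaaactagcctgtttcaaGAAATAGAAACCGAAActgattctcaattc
Irgm2, chr11:58214868-58214967, plus strand: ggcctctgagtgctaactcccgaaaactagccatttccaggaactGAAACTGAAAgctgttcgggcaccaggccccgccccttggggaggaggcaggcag
B2m, chr2:122147503-122147602, plus strand: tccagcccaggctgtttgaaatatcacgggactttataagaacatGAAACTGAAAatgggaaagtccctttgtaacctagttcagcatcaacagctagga
H2-Aa, chr17:34287824-34287923, minus strand: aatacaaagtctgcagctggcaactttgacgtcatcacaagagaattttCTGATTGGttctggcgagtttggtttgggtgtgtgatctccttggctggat

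In Irgm1 the capitals cover 2 matches that overlap. In Tgtp1, Tgtp2 and Irgm2 the letters ttccaggaa stand shortly before the capitals, and they match the gamma-activated site TTCNNNGAA. On both strands of the 250 bases before the start, this interferon motif was found in the promoters of 30 of 471 separated higher genes with an entry in the table (6.37%), of 8 of 300 separated lower genes (2.67%), of 334 of 10298 tested genes (3.24%) and of 3.46% of all 27025 promoters. All 9 members with an entry of the list of interferon-inducible GTPases used here held it, the 5 separated ones among them. Ifi47, a related GTPase that is separated but not on that list, held no match in this window. Of the separated MHC genes with an entry, 1 of 6 of class I and 0 of 3 of class II held the interferon motif. The letters of the Y box were in 1 of the 3 of class II and in 2 of the 6 of class I. Over all tested members with an entry they were in 2 of 6 of class II and 6 of 15 of class I. They were thus not particular to class II here, and the 2 MHC promoters printed are single cases. The gamma-activated site was at 7.64%, 7.0% and 7.25% in the separated higher, separated lower and tested genes, and CTGATTGG at 7.22%, 4.33% and 6.46%. These are matches of letters and say nothing about binding.

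Few of the distances were wide. The 988 separated genes are 7.41% of the genes tested, the 612 higher ones 4.59% and the 376 lower ones 2.82%. These shares are the background for every list described here with all 9 libraries in FPKM. On the log2(FPKM + 1) scale, on which all differences are given and which understates changes of low genes, the median difference was 0.39 over the higher genes and -0.35 over the lower ones, against 0.01 over all genes. A difference of at least 1 was reached by 37 higher and 26 lower genes, whereas 375 and 266 differed by less than 0.5. The gap between the nearest exposed and NC libraries was under 0.1 for 401 and 255 of them and at least 0.5 for 13 and 4. At the edge, Znhit6 was counted with an exposed minimum of 12.6807 FPKM over an NC maximum of 12.6798, and Ngdn was not, with 27.5717 against 27.5807.

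Under limma with Benjamini-Hochberg adjustment over all 13338 genes, 0 genes (0%) differed between exposed and NC libraries at an adjusted p under 0.05, and the smallest adjusted p was 0.147. At an unadjusted p under 0.05 there were 1347 genes (10.1%), 891 higher and 456 lower, and 73.1% of the separated genes were among them. Separation and p come from the same values, so this overlap and those below were largely fixed by the rule. When limma weighted the libraries by how well they fitted, 421 genes were called, 334 higher and 87 lower, 293 of them separated. HBOT replicate 2 was unlike the rest: in it 1637 genes were over 1 log2 unit away from the average of the remaining 8 libraries, against 173 to 347 genes for any other library, and its highest rank correlation with another library was 0.907 against at least 0.977. Without it 16 genes were called, 15 higher and 1 lower, 13 of them separated, and the number of separated genes was 1678. The scale of the values bears on the direction: the share of separated genes with the exposed libraries higher was 61.9% in FPKM, 45.1% after rescaling to TPM, 54.7% after median-of-ratios scaling and 53% after quantile normalization, although all 988 genes kept the sign of their difference in each.

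**Figure D1:**
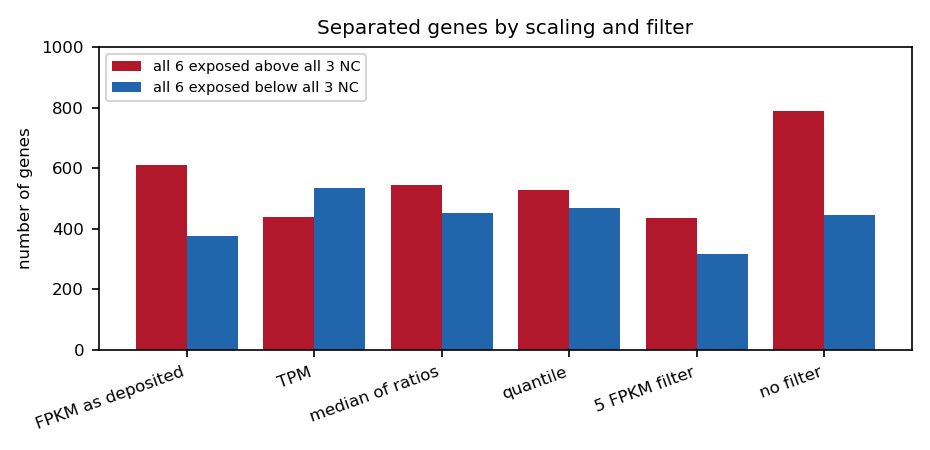
Number of genes (vertical axis) whose 6 exposed libraries all lay above (red) or all below (blue) the 3 NC libraries, in the deposited FPKM, under 3 other scalings and under 2 other filters on low values. The higher genes outnumber the lower ones in every setting drawn except TPM, with 437 higher and 533 lower.

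The leading genes by p show what a wide separation looked like here. Ftdc1, which encodes a protein with a ferritin domain, stood at 6.83, 6.14 and 7.32 FPKM in the NC libraries and at 11.1 to 14.1 FPKM in the exposed ones, with a median of 12.4. Its difference was 0.81 ± 0.10 (SE of the limma fit; adjusted p = 0.147), and the distance between the nearest exposed and NC libraries exceeded the range within either group. Umodl1, which encodes an uromodulin-like membrane protein, was at 4.30, 2.60 and 4.65 FPKM in NC and at 7.97 to 12.2 FPKM in the exposed libraries, a difference of 1.27 ± 0.18 (adjusted p = 0.147). Tgoln1, a protein that cycles through the trans-Golgi network, was the lower gene with the smallest p. It lay at 48.9, 48.7 and 52.4 FPKM in NC and within 33.1 to 38.0 FPKM in all 6 exposed libraries, a difference of -0.52 ± 0.08 (adjusted p = 0.147). Without HBOT replicate 2, limma called all 3 genes, with adjusted p of 0.0240 for Ftdc1 and Umodl1 and 0.0338 for Tgoln1. Over all settings run the adjusted p of Ftdc1 ranged from 0.00312 to 0.490, that of Umodl1 from 0.00541 to 0.490 and that of Tgoln1 from 0.00564 to 0.490.

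**Figure D2:**
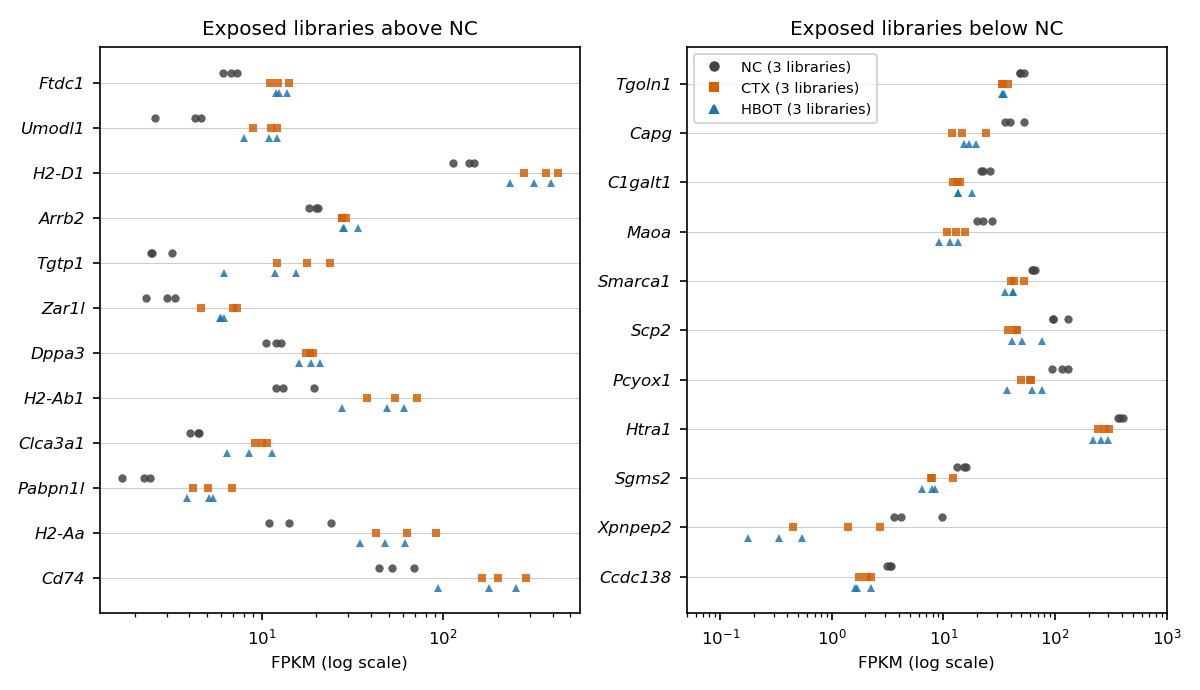
FPKM (log scale) in each library of the leading genes by p, 12 higher and 11 lower, among named genes of at least 2 FPKM on average: NC grey circles, CTX orange squares, HBOT blue triangles, 3 libraries each. By choice none of these genes has an exposed library within the range of NC; the gap is widest against the spread for genes such as Ftdc1 (11.1 to 14.1 against 6.14 to 7.32 FPKM) and narrow for Sgms2 (6.42 to 12.2 against 13.2 to 16.0 FPKM).

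Genes of the growing oocyte stood higher in the exposed ovaries. Of 29 tested genes of oocyte growth and the egg coat, 21 were separated with the exposed libraries higher and 0 lower, against a background of 4.59% and 2.82% of all genes. All 29 had a positive difference, with a median of 0.73 against 0.01 for all genes. The summed FPKM of the list was 377 to 516 in NC and 578 to 861 in the exposed libraries, which did not overlap. In RNA of a whole organ, more oocytes, more RNA per oocyte and less of other cells cannot be told apart.

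Gdf9 encodes a growth factor that oocytes secrete to act on their granulosa cells. Its FPKM was 43.6, 28.3 and 43.2 in NC, and in the exposed libraries 51.3 at the lowest, 76.0 at the median and 83.7 at the highest. CTX replicate 3 was the lowest exposed library, and no exposed library reached down to NC. The difference was 0.91 ± 0.18 (adjusted p = 0.174). Bmp15, its partner growth factor, stood at 10.8, 9.36 and 11.8 FPKM in NC and at 12.7 to 22.9 FPKM in the exposed libraries, with CTX replicate 3 again the lowest, a difference of 0.79 ± 0.17 (adjusted p = 0.174).

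Of the 3 genes of the zona pellucida, the coat of the egg, Zp2 and Zp3 were separated and Zp1 was not. Zp3 lay at 34.1, 23.2 and 36.8 FPKM in NC and at 38.5 to 69.9 FPKM in the exposed libraries (0.90 ± 0.20; adjusted p = 0.179). The lower end of that range was CTX replicate 3 alone, close above the highest NC library, and the other 5 lay from 59.0 FPKM up. For Zp1 the same library, at 13.7 FPKM, fell below NC replicate 1, at 14.6 FPKM.

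Genes that act in the egg and early embryo showed the same order of groups. Nlrp14, a NOD-like receptor family member of oocytes, was at 31.6, 22.4 and 29.6 FPKM in NC and at 36.1 to 57.4 FPKM in the exposed libraries (0.77 ± 0.15; adjusted p = 0.174). H1f8, the linker histone of oocytes, was at 26.8, 19.1 and 25.6 FPKM in NC against 33.1 to 52.0 FPKM (0.87 ± 0.16; adjusted p = 0.17). Both gaps were smaller than the NC range of the gene. Dppa3, which protects the methylation of the maternal genome after fertilization, had a narrow spread in both groups, 10.6 to 12.8 FPKM in NC and 16.2 to 21.0 FPKM when exposed (0.60 ± 0.10; adjusted p = 0.162). Mos, the kinase that holds the egg at metaphase, lay at 3.38 to 6.05 FPKM in NC and at 6.13 to 11.9 FPKM in the exposed libraries, the 2 ranges almost touching. Further separated members were Zar1, Npm2, Khdc3, Bcl2l10, Tle6, Oosp1, Oosp3, Nlrp5, Nlrp4f, Nlrp9b, Fbxw15, Rfpl4 and Omt2b.

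The 8 oocyte genes outside the separated set were Zp1, Padi6, Ooep, Uchl1, Oog1, Oosp2, Kit and Figla. In the first 4 of these only CTX replicate 3 reached into the NC range, as in Padi6, an enzyme of the egg's cytoplasmic lattices, with 51.6 FPKM against 35.4 to 52.8 FPKM in NC and 71.6 to 89.1 FPKM in the other 5. Kit, the receptor that oocytes share with mast cells and blood precursors, was at 13.2 to 15.6 FPKM in NC and at 4.38 to 23.3 FPKM in the exposed libraries, with HBOT replicate 2 the lowest. Figla, a transcription factor of the earliest follicles, differed by 0.12. In a separate list of germ cells and primordial follicles, 0 of 10 tested genes were separated and the median difference was 0.29. Ddx4, an RNA helicase of germ cells of all stages, stood at 1.87, 1.69 and 1.09 FPKM in NC and at 1.42 to 2.71 FPKM in the exposed libraries, overlapping ranges with a difference of 0.27 ± 0.17 (adjusted p = 0.635).

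The count of separated oocyte genes was 21 of 29 also without HBOT replicate 2, without CTX replicate 1 and without both. Leaving libraries out can only keep or raise such a count. Over all 13338 genes it rose from 988 to 1678, 1082 and 1862. The difference was positive for all 29 oocyte genes without HBOT replicate 2 and without both, and for 28 without CTX replicate 1. The oocyte count was 17 in TPM, 18 after median-of-ratios scaling and 19 after quantile normalization, with a positive difference for all 29 genes in each. Of all 13338 genes, 437, 545 and 528 were then separated higher. Limma with library weights called 20 of the 29, against 421 of all 13338 genes, 334 of them higher. Limma without weights called 0 of the 29 in any of these settings, and 0 to 16 of all genes. By library, the median distance of the list from the NC mean was 0.76, 0.77 and 0.25 in the CTX libraries and 0.79, 0.86 and 0.77 in the HBOT libraries, so 1 library, CTX replicate 3, lay much closer to NC than the other 5.

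Granulosa, theca and luteal genes mostly overlapped between the groups. Of 16 granulosa genes 0 were separated, with a median difference of 0.30, and of 14 theca and steroid synthesis genes 0 were separated, with a median of -0.17 that turned to 0.06 without HBOT replicate 2. Amh, the anti-Müllerian hormone of granulosa cells in growing follicles, was at 76.5, 73.2 and 128 FPKM in NC and at 97.7, 199 and 414 FPKM at the lowest, median and highest of the exposed libraries. CTX replicate 3 fell within the NC range and the other 5 lay above it (1.22 ± 0.40; adjusted p = 0.342). Cyp19a1, the aromatase that makes estrogen, ran from 2.37 to 55.3 FPKM over the exposed libraries and from 3.35 to 7.69 FPKM in NC.

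The corpus luteum list had 9 of 11 members lower on average, with a median difference of -0.51, but only 1 separated member, Ldhb, a lactate dehydrogenase subunit, and that one was higher. By library the median was -1.67, -0.20 and -0.01 in CTX and -0.97, -0.58 and -0.19 in HBOT, and without CTX replicate 1 that of the list was -0.27. Akr1c18 encodes the enzyme that inactivates progesterone as the corpus luteum regresses. It stood at 2509, 2464 and 2127 FPKM in NC. The CTX libraries held 289, 125 and 153 FPKM and the HBOT libraries 194, 418 and 2848 FPKM. Thus 5 of 6 exposed libraries lay far below NC, while HBOT replicate 3 lay above all 3 NC libraries, and the gene is not separated (-2.84 ± 0.84; adjusted p = 0.297). Without HBOT replicate 3 the difference was -3.46 and limma called it (adjusted p = 0.0185, over a range of 0.0185 to 0.777 in all settings run). Ptgfr, the receptor through which prostaglandin ends luteal life, showed the same library standing out: 103 to 120 FPKM in NC, 109 FPKM in HBOT replicate 3 and 15.2 to 67.2 FPKM in the other exposed libraries.

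**Figure D3:**
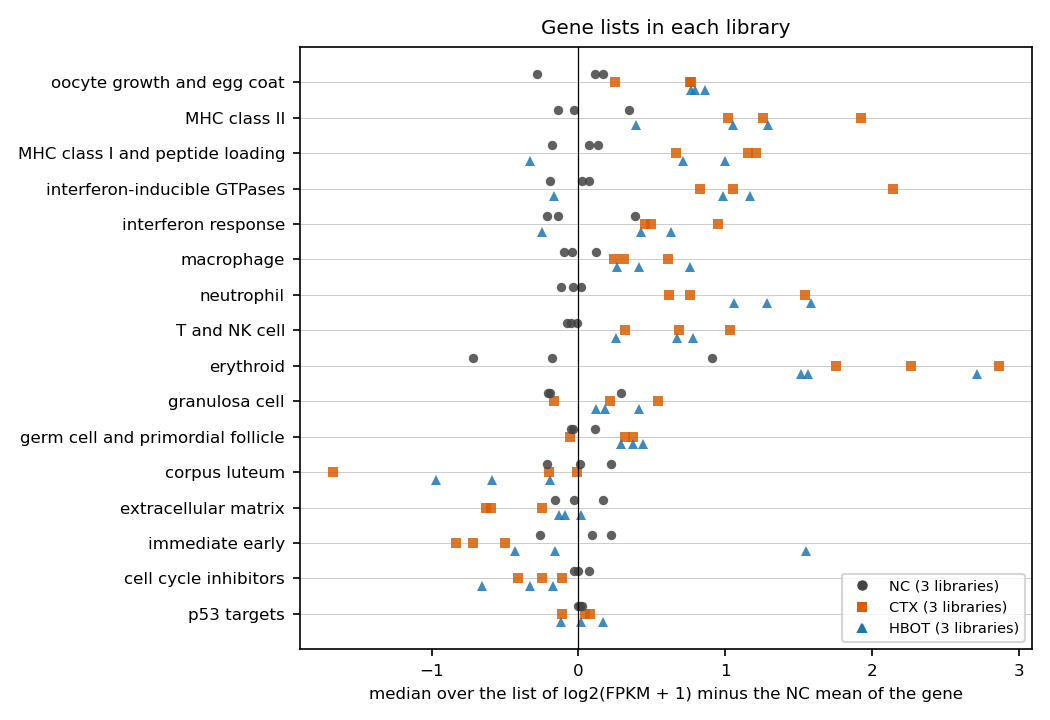
Median over the tested members of 16 gene lists of the distance from the NC mean of each gene, log2(FPKM + 1), 1 point per library: NC grey circles, CTX orange squares, HBOT blue triangles. The oocyte, class II, neutrophil and erythroid medians of all 6 exposed libraries lie to the right of NC, whereas HBOT replicate 2 lies at -0.33 for class I and at -0.17 for the interferon-inducible GTPases.

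Genes of antigen presentation were higher in the exposed ovaries, with the widest differences in class II. Class II molecules are made by macrophages, dendritic cells and B cells, and in other cells after interferon gamma. Of 9 tested class II genes 5 were separated higher (H2-Aa, H2-Ab1, H2-DMa, H2-DMb1 and Cd74), all 9 had a positive difference, and the median was 1.19. Without HBOT replicate 2 the difference was positive for 8 and negative for 1, with a median of 1.35. The summed FPKM was 102 to 154 in NC and 201 to 531 when exposed.

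H2-Aa and H2-Ab1 encode the chains of the class II molecule I-A. H2-Aa, whose promoter with its Y box is printed above, was at 10.9, 24.1 and 14.1 FPKM in NC and at 34.9 to 91.7 FPKM in the exposed libraries, with a median of 54.7 (1.74 ± 0.31; adjusted p = 0.17). H2-Ab1 was at 13.1, 19.4 and 12.01 FPKM in NC and at 27.6 to 71.7 FPKM in the exposed ones (1.66 ± 0.28; adjusted p = 0.162). HBOT replicate 2 was the lowest exposed library for both and CTX replicate 2 the highest. Cd74, the invariant chain that guards the groove of class II, stood at 51.9, 69.2 and 44.1 FPKM in NC and at 93.2, 189 and 287 FPKM at the lowest, median and highest of the exposed libraries (1.75 ± 0.31; adjusted p = 0.17). Without HBOT replicate 2 limma called H2-Ab1 (1.81; adjusted p = 0.0240, range over all settings 0.00460 to 0.490) and Cd74 (1.94; adjusted p = 0.0178, range 0.00327 to 0.490). Ciita, the coactivator that class II genes depend on, was not separated, since HBOT replicate 2 at 0.607 FPKM fell within the NC range of 0.548 to 0.634 FPKM while the other 5 held 1.55 to 3.87 FPKM.

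Of 19 genes of class I and peptide loading, 7 were separated higher and 0 lower, with a median of 0.83. The difference was positive for 16 of the 19 and negative for 3. H2-D1, a classical class I heavy chain, was at 147, 138 and 113 FPKM in NC and at 231, 341 and 427 FPKM at the lowest, median and highest of the exposed libraries. No exposed library came near the NC range (1.31 ± 0.19; adjusted p = 0.147). B2m, the light chain common to all class I molecules, was at 298, 239 and 275 FPKM in NC and at 366 to 756 FPKM in the exposed libraries (1.11 ± 0.23; adjusted p = 0.174). H2-K1, the other classical heavy chain, lay at 100, 128 and 134 FPKM in NC and at 184 to 354 FPKM when exposed (0.99 ± 0.21; adjusted p = 0.174). Psmb8, the immunoproteasome subunit that shapes peptides, ranged over 11.4 to 17.7 FPKM in NC and 18.3 to 49.9 FPKM when exposed. Nlrc5, the coactivator of class I genes, ranged over 0.956 to 1.77 and 2.46 to 7.93 FPKM.

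H2-Q4 and H2-Q6, nonclassical members of the same family, were separated too, but reads of H2 genes can be shared between near-identical copies, so their single values are uncertain. Without HBOT replicate 2, 14 of the 19 class I genes were separated, against 1678 of all 13338 genes. Limma then called 16 of all genes and 5 of the 19, among them H2-Q4 (adjusted p = 0.00603), H2-D1 (adjusted p = 0.0178) and B2m (adjusted p = 0.0426). Over all settings run these ranged from 0.00163 to 0.550, from 0.00312 to 0.490 and from 0.0112 to 0.558. Members with a small difference over all libraries were Tap2 (-0.10), Tapbp (-0.08) and H2-T23 (0.01), in each of which HBOT replicate 2 was the lowest of the 9 libraries. Without it all 19 genes had a positive difference.

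Of 15 tested interferon-inducible GTPases, 6 were separated higher and 0 lower (Tgtp1, Tgtp2, Iigp1, Irgm1, Irgm2 and Igtp), and all 15 had a positive difference with a median of 1.01. The 6 all belong to the immunity-related GTPases, and the 9 guanylate-binding proteins of the list, Gbp2 to Gbp10, overlapped between groups, with differences of 0.41 for Gbp2 to 1.31 for Gbp4.

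Tgtp1 was at 2.51, 2.48 and 3.21 FPKM in NC, at 12.2, 23.8 and 17.8 FPKM in the CTX libraries and at 11.8, 6.24 and 15.5 FPKM in the HBOT libraries. Even the lowest, HBOT replicate 2, was well above NC (1.97 ± 0.32; adjusted p = 0.162; without that library 2.17 and adjusted p = 0.0127, range over all settings 0.00298 to 0.492). Tgtp2, its neighbour and near copy, was at 3.24, 2.14 and 2.46 FPKM in NC and at 7.96 to 45.4 FPKM in the exposed libraries (2.22 ± 0.44; adjusted p = 0.174), and how reads were divided between both genes is not given in the sources used here. Iigp1, which disrupts the vacuole around intracellular parasites, lay at 5.21, 3.93 and 6.90 FPKM in NC and at 11.1 to 63.9 FPKM when exposed (1.88 ± 0.44; adjusted p = 0.187). Irgm1, a regulator of the other family members, came closest to overlap, with 10.9 to 16.6 FPKM in NC and 17.9 to 52.5 FPKM when exposed (1.01 ± 0.28; adjusted p = 0.254). For each of the 4 genes HBOT replicate 2 was the lowest exposed library and CTX replicate 2 the highest. Without HBOT replicate 2, 13 of 15 GTPases were separated, against 1678 of all 13338 genes. Limma then called 1 of the 15, against 16 of all genes.

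Of 25 tested genes of the wider interferon response 2 were separated higher, Oas1a, which senses double-stranded RNA, and Rtp4, an interferon-induced chaperone of receptors. That is 8% against a background of 7.41%, and all 25 genes had a positive difference with a median of 0.45. Without HBOT replicate 2, 8 of the 25 were separated higher, with a median of 0.60, where 1678 of 13338 genes were separated. Cxcl10, a chemokine for T cells, was at 0.771 to 3.24 FPKM in NC, at 1.12 FPKM in HBOT replicate 2 and at 3.68 to 17.2 FPKM in the other 5.

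Markers of blood and immune cells lay higher in the exposed libraries as well, but the order of these libraries differed between lists. In HBOT replicate 2 the median distance from NC was 2.72 for erythroid and 1.58 for neutrophil genes. It was 0.26 for T and NK cell genes, 0.26 for macrophage genes, -0.33 for class I and -0.17 for the GTPases. Of 5 tested erythroid genes 4 were separated, of 7 neutrophil genes 4, of 7 T and NK cell genes 3 and of 16 macrophage genes 5, all of them higher. Many of the members that were tested had passed the filter through the exposed libraries alone: 48 separated higher genes were under 1 FPKM in every NC library, S100a8, S100a9, Csf3r, Retnlg, Gzma and Gzmb among them, so counts over these lists are a description. Whether blood or immune cells in the tissue bear on the MHC, GTPase or any other result was not tested.

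The erythroid list, which the hemoglobin genes lead, had the highest median difference of the 38 lists, 2.13. Hba-a1 stood at 31.8, 44.1 and 89.3 FPKM in NC, at 258, 186 and 370 FPKM in the CTX libraries and at 145, 319 and 145 FPKM in the HBOT libraries (2.13 ± 0.39; adjusted p = 0.17). Hbb-bs followed with 21.4, 35.8 and 73.1 FPKM in NC and 113 to 292 FPKM when exposed (2.13 ± 0.41; adjusted p = 0.174). NC replicate 3 was the highest NC library for both. Reads can be shared between Hba-a1 and Hba-a2 and between Hbb-bs and Hbb-bt. The summed FPKM of the list was 63.2 to 208 in NC and 317 to 819 when exposed. Slc4a1, the anion exchanger of the red cell membrane, was at 0 in 2 NC libraries and at most 0.905 FPKM in any library.

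Of the neutrophil genes, S100a9, a calcium-binding protein of the neutrophil cytoplasm, was at 0.603, 0.917 and 0.392 FPKM in NC and at 3.44 to 20.2 FPKM in the exposed libraries (2.60 ± 0.54; adjusted p = 0.174). Its partner S100a8 was at 0.224, 0.0478 and 0 FPKM in NC and at 1.17 to 11.3 FPKM when exposed (2.37 ± 0.53; adjusted p = 0.18). For both genes CTX replicates 1 and 2 held the lowest exposed values and CTX replicate 3 and HBOT replicate 1 the highest. The granule genes of the list differed among themselves. Ngp was at 0 in 2 NC libraries and at 0.170 to 7.32 FPKM when exposed, and Camp was at 0 in 1 NC and 1 exposed library. Ltf reached 0.471 to 2.59 FPKM in NC and 0.132 to 1.84 FPKM when exposed, and Mmp9 overlapped at 1.46 to 1.61 and 0.951 to 2.38 FPKM. The summed FPKM of the list was 4.79 to 8.50 in NC and 12.9 to 54.3 when exposed.

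Ccl5, a chemokine of cytotoxic lymphocytes, was at 0.824, 0.741 and 1.24 FPKM in NC and at 1.30 to 8.40 FPKM in the exposed libraries (1.24 ± 0.38; adjusted p = 0.312). Gzma, a granzyme, was at 0.187, 0.479 and 0.127 FPKM in NC and at 0.646 to 5.43 FPKM when exposed (1.37 ± 0.40; adjusted p = 0.29). The T cell receptor gene Cd3e overlapped between the groups, at 0.261 to 0.834 and 0.334 to 1.67 FPKM. The summed FPKM of the T and NK genes was 7.44 to 7.75 in NC and 11.6 to 30.3 when exposed. B cell genes were low everywhere: 1 of 7 in the table was tested, Jchain, and Cd79a, a part of the B cell receptor, did not exceed 0.454 FPKM in NC or 0.404 FPKM when exposed.

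The macrophage genes that separated were those of the complement component C1q and 2 others. C1qb was at 19.1, 21.3 and 17.5 FPKM in NC and at 27.6 to 43.4 FPKM when exposed (0.70 ± 0.15; adjusted p = 0.174), C1qc and C1qa lay closer to NC, and Fcgr1, an antibody receptor, and Ms4a7 completed the set. Adgre1, which encodes the macrophage surface marker F4/80, was at 1.80 to 2.01 FPKM in NC and at 1.498 to 4.95 FPKM when exposed, and Cd68 differed by 0.03. Summed, the list overlapped between the groups, at 184 to 260 FPKM in NC and 242 to 486 FPKM when exposed.

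The lower genes belonged to fewer of the lists. Across the 38 lists, 528 genes were tested, of which 69 were separated higher and 9 lower. The 9 were Bgn and Loxl1 of the extracellular matrix, Tob1 and Rbl2 among inhibitors of the cell cycle, Gadd45a and Nupr1 among growth arrest and stress genes, the p53 target Ccng1, and Notch3 and Pdgfrb of smooth muscle and pericytes.

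The other lower genes are given singly, by the rule for named genes, and stand for no group. Scp2, a sterol carrier, was at 94.997, 95.3 and 132 FPKM in NC and at 37.9 to 77.01 FPKM in the exposed libraries, of which HBOT replicate 3 was the highest (-1.13 ± 0.21; adjusted p = 0.17; without that library -1.26 and adjusted p = 0.0275, range over all settings 0.0275 to 0.492). Maoa, the monoamine oxidase, stood at 22.6, 20.03 and 27.1 FPKM in NC and at 9.17 to 15.7 FPKM when exposed (-0.88 ± 0.16; adjusted p = 0.17). Pcyox1, an oxidase of prenylated cysteine, was at 129, 94.2 and 115 FPKM in NC and at 37.1 to 75.9 FPKM when exposed (-0.98 ± 0.20; adjusted p = 0.174). In all 3 the exposed groups lay below NC without overlap, by less than the range within the exposed libraries. Sgms2, a sphingomyelin synthase, and Acss1, an acetyl-CoA synthetase of mitochondria, were below NC as well, with differences of -0.77 and -1.02.

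Capg, which caps actin filaments, was at 35.8, 39.8 and 53.1 FPKM in NC and at 11.97, 16.1 and 24.3 FPKM at the lowest, median and highest of the exposed libraries (-1.29 ± 0.21; adjusted p = 0.162). Cemip, which breaks down hyaluronan, was at 47.4, 59.8 and 38.7 FPKM in NC and ran from 2.97 FPKM in CTX replicate 1 and 4.55 FPKM in HBOT replicate 2 to 27.7 FPKM in CTX replicate 2 (-1.84 ± 0.64; adjusted p = 0.375). Its 6 exposed libraries thus fell into a pair far below NC and 4 nearer to it, and its standard error was larger than that of Capg. Mmp12, the macrophage elastase, was at 3.88, 14.5 and 4.63 FPKM in NC and at 1.04 to 2.73 FPKM when exposed, with NC replicate 2 far above the rest (-1.47 ± 0.35; adjusted p = 0.19). Bgn, a matrix proteoglycan, was at 189, 208 and 241 FPKM in NC and at 95.8 to 171 FPKM when exposed (-0.71 ± 0.19; adjusted p = 0.25). The 2 separated matrix genes stand beside 22 that overlapped between the groups, such as Col1a1 with a difference of -0.48 and Col3a1 with -0.45.

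Pdcd1, which encodes the inhibitory receptor PD-1 of activated T cells, was at 12.02, 10.1 and 18.1 FPKM in NC and at 2.66 to 7.42 FPKM when exposed (-1.24 ± 0.32; adjusted p = 0.216). Its direction was opposite to that of the T and NK genes above, but Cd3e did not exceed 0.834 FPKM in NC. Which cells of the ovary held the Pdcd1 transcript was not tested. Xpnpep2, a membrane aminopeptidase, was at 3.62, 4.13 and 9.75 FPKM in NC, at 0.447, 2.68 and 1.39 FPKM in the CTX libraries and at 0.338, 0.177 and 0.542 FPKM in the HBOT libraries (-1.84 ± 0.39; adjusted p = 0.174). Of the HBOT libraries, 2 lay below the lowest CTX library.

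Genes of growth arrest and stress lay on both sides of NC, with 2 of 12 separated higher and 2 lower. Gadd45a, a p53-responsive stress sensor, was at 128, 99.2 and 123 FPKM in NC, at 26.0, 31.7 and 40.7 FPKM in the CTX libraries and at 45.6, 49.0 and 91.1 FPKM in the HBOT libraries (-1.39 ± 0.32; adjusted p = 0.185). Nupr1, a stress-induced nuclear protein, was at 176, 203 and 196 FPKM in NC, at 34.3, 59.9 and 21.4 FPKM in the CTX libraries and at 79.3, 106 and 151 FPKM in the HBOT libraries (-1.61 ± 0.53; adjusted p = 0.342). In both genes all CTX libraries lay below all HBOT libraries, which lay below NC. The relatives Gadd45g and Sesn2 were separated higher, by 0.65 ± 0.19 (adjusted p = 0.284) and 0.35 ± 0.13 (adjusted p = 0.419).

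Cell cycle inhibitors were mostly lower, 10 of 12 with a negative difference and a median of -0.38. The median was -0.22 without HBOT replicate 2, with 11 of 12 negative. Cdkn2b, which inhibits the kinases that start the cycle, was at 48.6, 28.8 and 39.4 FPKM in NC, at 4.59, 3.32 and 2.80 FPKM in the CTX libraries and at 8.50, 11.9 and 29.7 FPKM in the HBOT libraries. The gene is not separated, because HBOT replicate 3 exceeded the lowest NC library by under 1 FPKM (-2.22 ± 0.60; adjusted p = 0.25). Tob1, an antiproliferative protein, was separated at 57.3, 52.998 and 38.9 FPKM in NC against 24.7 to 34.9 FPKM (-0.66 ± 0.15; adjusted p = 0.179). Cdkn1a, the p53-induced inhibitor p21, was at 15.1, 19.5 and 21.4 FPKM in NC, below all of these in the CTX libraries at 8.48, 10.6 and 7.12 FPKM, and on both sides of NC in the HBOT libraries at 22.3, 35.9 and 13.0 FPKM. Its pooled difference of -0.39 ± 0.44 (adjusted p = 0.806) is thus made of -1.01 in CTX and 0.24 in HBOT.

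**Figure D4:**
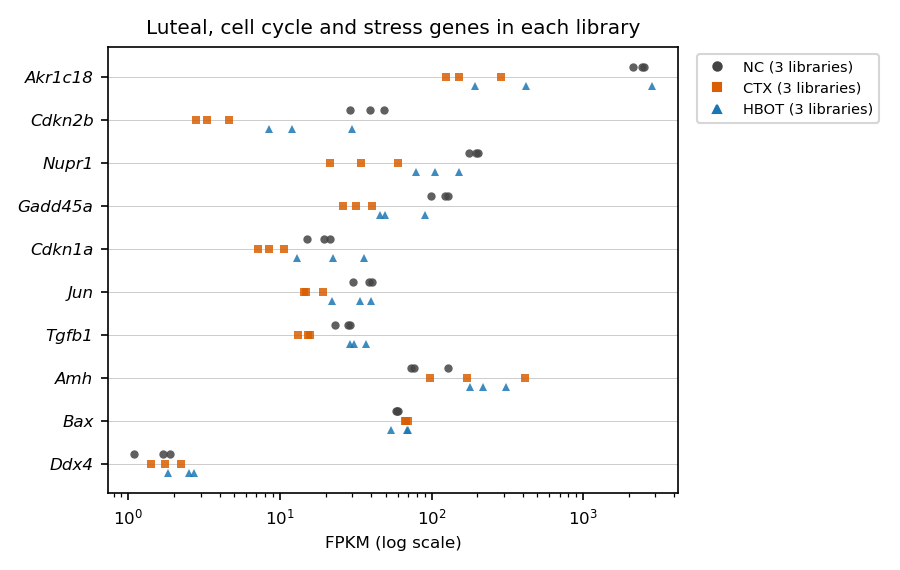
FPKM (log scale) in each library of 10 genes of the corpus luteum, the cell cycle, stress, follicles and germ cells: NC grey circles, CTX orange squares, HBOT blue triangles, 3 libraries each. Of these genes Nupr1 and Gadd45a have all exposed libraries below NC; in Akr1c18 and Cdkn2b HBOT replicate 3 reaches the NC range or exceeds it, and in Tgfb1 the CTX libraries (13.1 to 15.7 FPKM) lie below NC and the HBOT libraries do not.

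The lists of p53 targets, of crosslink and alkylation repair and of apoptosis lay near the background. Gadd45a, p53-responsive and separated lower, is counted in another list. The p53-induced Cdkn1a, described above, lay below NC in all CTX libraries but not in all HBOT libraries. Of 18 p53 targets 1 was separated (lower, Ccng1), of 19 genes of crosslink and alkylation repair 1 (higher, Brca2), and of 18 apoptosis genes 1 (higher, Bid), with medians of -0.03, 0.03 and 0.05. They were 0.02, 0.10 and 0.11 without HBOT replicate 2. Bax, the p53-induced killer protein, was at 59.9, 58.7 and 59.1 FPKM in NC, at 66.4 to 69.8 FPKM in 5 exposed libraries and at 53.6 FPKM in HBOT replicate 2. It is therefore not separated (0.15 ± 0.10; adjusted p = 0.632). No member was separated among 18 genes of cell division, 22 of DNA replication, 18 of cholesterol synthesis, 18 antioxidant genes, 17 immediate early genes or 18 of hypoxia and glycolysis. The difference was nonetheless positive for 21 of the 22 replication genes, with a median of 0.27, and for 17 of the 18 division genes, with a median of 0.08. Without CTX replicate 1 these were 20 of 22 (0.21) and 10 of 18 (0.01). Jun, an immediate early transcription factor, was at 14.4 to 19.2 FPKM in the CTX libraries, below NC at 30.6 to 40.5 FPKM, and at 22.2 to 40.1 FPKM in the HBOT libraries, overlapping NC (-0.68 ± 0.31; adjusted p = 0.504).

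By the rule, both arms of the exposed group lie beyond NC in every separated gene. The distances here only describe how far each library lay. Over the 612 higher genes the median distance from NC was 0.47, 0.35 and 0.26 in the CTX libraries and 0.37, 0.44 and 0.38 in the HBOT libraries. Over the 376 lower genes it was -0.34, -0.25 and -0.27 in CTX and -0.27, -0.68 and -0.25 in HBOT, with HBOT replicate 2 far from the others. The exposed library nearest to NC was most often CTX replicate 3 among the higher genes (225 of 612), followed by HBOT replicate 2 (113), and CTX replicate 2 or HBOT replicate 3 among the lower genes (99 of 376 each).

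Between the arms, limma called 0 genes of all tested (0%) in HBOT against CTX, and 812 (6.09%) at an unadjusted p under 0.05, of which 22 were separated genes. The HBOT and CTX libraries did not overlap for 9.31% of the separated genes and for 10.2% of all genes. The mean of HBOT was the higher for 360 of the 612 higher genes and for 115 of the 376 lower ones, against 38.4% of all genes. Side by side, with the NC libraries common to both, the differences from NC were 2.30 in CTX and 1.63 in HBOT for Tgtp1, 1.95 and 1.55 for Cd74, 0.81 and 1.01 for Gdf9, 2.18 and 3.02 for S100a9, -1.33 and -1.25 for Capg, and -2.40 and -0.81 for Nupr1. Tgfb1, the growth factor TGF-beta 1, was at 23.2, 28.0 and 29.1 FPKM in NC, at 13.1, 15.7 and 15.3 FPKM in the CTX libraries and at 30.6, 37.2 and 28.9 FPKM in the HBOT libraries. The pooled difference of -0.28 ± 0.32 (adjusted p = 0.808) describes neither arm, at -0.82 and 0.26.

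Genes of the labelled tissue were present in all libraries: Foxl2 of granulosa cells ranged from 65.7 to 75.9 FPKM in NC and from 52.6 to 110 FPKM when exposed. The adipocyte gene Adipoq was at 5.24 FPKM in CTX replicate 1, and the 5 adipocyte genes tested held 0 separated members.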

How the data were processed

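The study measured polyadenylated RNA of 9 mouse ovary libraries, 3 per group. Per the labels' protocols, RNA was extracted with TRIzol and enriched with oligo(dT). Per the submitters' processing notes, fastp 0.23.4 and GRCm39 (mm39) were used; no aligner, counting program or annotation is given in the sources used here. A single FPKM table was deposited, with 22544 entries, 747 of them assembled MSTRG loci; 0 columns were unmatched, and column sums ranged from 394046 to 420058. The table gives no counts, so depth is unknown and only the spread of the libraries shows the precision.

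The deposited FPKM were taken as log2(FPKM + 1), and limma 3.58.1 in R 4.3.3 fitted 2 groups (lmFit, eBayes with trend, 7 residual degrees of freedom) with Benjamini-Hochberg adjustment over 13338 genes, 262 of them MSTRG loci. HBOT against CTX came from a fit of 3 groups with 6 residual degrees of freedom. The procedure was tested on simulated data. Members and lists were chosen with earlier results of these data known. Named genes were separated, averaged at least 2 FPKM and carried an established name: the 12 with the smallest p and the 8 with the widest gap in each direction, up to 4 per list, and a panel of 12 genes; a few of these, and of the list members, are not reported here. Members of the described lists, and genes not named by this rule, were added after their values were seen. Promoters came from a RefSeq table that held 10298 of the tested genes, read with Python 3.11.15. Replicate numbers did not pair libraries.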

Additional observations from a re-analysis of the deposited data

Results flagged for a closer look

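Among 86 named genes, 8 had 1 exposed library far from the other 5, by the gap to its neighbour as a share of the whole range. Chance alone puts about 1 in 20 groups past that limit. In HBOT replicate 2, Rbl2 was at 3.75 FPKM against 10.2 to 11.3 FPKM in the other 5, H2-Q4 at 24.2 against 46.8 to 65.8 FPKM, Cd55 at 16.6 against 7.50 to 9.97 FPKM and Bax at 53.6 against 66.4 to 69.8 FPKM. In HBOT replicate 3, Arrb2 was at 33.9 FPKM against 27.7 to 29.2 FPKM and C1galt1 at 17.9 against 12.3 to 14.0 FPKM. In CTX replicate 1, Acss1 was at 5.47 FPKM against 10.2 to 12.8 FPKM. In CTX replicate 3, Zp3 was at 38.5 FPKM against 59.0 to 69.9 FPKM.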

How the results depend on the processing

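A pseudocount of 0.1, no filter on low values, a filter of 5 FPKM, TPM, median-of-ratios and quantile scaling, a fit of 3 groups, eBayes run robustly or with no trend, and a test against a log2 change of 0.5 each left 0 genes called. Library weights called 421 genes, 334 higher and 87 lower. Leaving out 1 library called 0 to 16 genes, 0 to 15 higher and 0 to 8 lower: 16 without HBOT replicate 2, 9 without HBOT replicate 3, 1 (Rpl26, lower) without NC replicate 1 and 0 without any of the other 6. Separated genes then numbered 1082 to 1991, 647 to 1246 higher and 435 to 745 lower, since fewer libraries have to be separated; the count passed 1.5 times that of all libraries without NC replicate 2 (1496), NC replicate 3 (1991) and HBOT replicate 2 (1678). Without HBOT replicate 2 and CTX replicate 1 together, 14 genes were called, 13 higher and 1 lower, and 1862 were separated, 1256 higher and 606 lower. Rescaling gave 970 separated genes in TPM, 997 after median-of-ratios scaling and 997 after quantile normalization, of which 805, 772 and 759 were among the 988. HBOT against CTX gave 0 called genes among the separated ones in each of the 15 fits run. Of the values of the 88 named genes under these settings, 1756 kept their side of the threshold, 78 passed it that had not, and 0 changed sign. Of the named genes 80 are separated, and for these the sign could not change when libraries were left out. The list and ribosomal values under other settings were computed after seeing the data. Depth is unknown, and the number of NC libraries limits every comparison.

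With replicate number as a block, 0 genes were called, the smallest adjusted p was 0.317 and 1225 genes had an unadjusted p under 0.05. The numbers do not pair the libraries: same-numbered libraries deviated together with correlations of -0.19, 0.16 and -0.29 between NC and CTX, 0.03, 0.11 and 0.07 between NC and HBOT, and 0.06, 0.05 and 0.10 between CTX and HBOT, so they share only a number.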

Other observations

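Gene families outside the lists, picked after the separated genes had been seen and so given with no test, add to the description. Of 22 tested Fbxw genes, F-box proteins of which many are made in oocytes, 10 were separated higher. Their values were modest: Fbxw24 averaged 13.3 FPKM in NC and 24.3 FPKM in the exposed libraries, and Fbxw14 averaged 10.2 and 20.6 FPKM. Of 11 Nlrp genes 8 were separated higher, of 9 Pramel genes 4 and of 5 Tcl genes 4. Members of these families are close copies, so their single values are uncertain. Of 8 Oas genes 4 were separated higher, Oas1a, Oas1c, Oas1e and Oas1h, and of 4 Fcgr genes, the receptors for antibodies, 3. Of 9 annexin genes, which bind membranes in the presence of calcium, 3 were separated lower, Anxa1, Anxa2 and Anxa7.

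Cytosolic ribosomal protein genes lay slightly higher when exposed. Of 79 tested, 27 were separated higher and 0 lower, 14 of 31 for the small subunit and 13 of 48 for the large one, with a median difference of 0.22. Rps6, the subunit protein that growth signals phosphorylate, was at 728, 706 and 709 FPKM in NC and at 815 to 1019 FPKM in the exposed libraries (0.34 ± 0.09; adjusted p = 0.216). The count depends on scaling: 25 in TPM, 15 after median-of-ratios scaling and 11 after quantile normalization, with 0 lower in each. Of all 13338 genes, 437, 545 and 528 were separated higher under these scalings. Of 13 genes encoded in mitochondria 3 were separated higher, with a median of 0.19, but 2 in TPM, 1 after median-of-ratios scaling and 0 after quantile normalization. Among the 3, mt-Co3, a subunit of cytochrome c oxidase, was at 2924, 2467 and 2896 FPKM in NC against 3041 to 3871 FPKM.

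Separated genes often lay beside each other. Of 593 separated higher genes with a RefSeq position, 113 (19.1%) had another separated higher gene as a neighbour, whereas 8.77% of all tested genes were next to one. Of 368 separated lower genes, 39 (10.6%) had a separated lower neighbour, against 5.59% of all genes. The longest runs were a pair of 5 Fbxw genes each, then Tgs1, Lyn, Rps20 and Mos. Runs of 3 were C1qa, C1qb and C1qc, H2-Q4 to H2-Q6, Pramel25, Pramel26 and Oog3, Tcl1b1 to Tcl1b3, Tgtp1, Tgtp2 and Ifi47, and, among the lower genes, Bpnt2, Fam110b and Ubxn2b.

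The clock gene Per2 was at 2.48, 4.13 and 3.39 FPKM in NC and at 5.002 to 7.56 FPKM in the exposed libraries (0.76 ± 0.16; adjusted p = 0.174), and Cry1 at 4.89 to 6.07 against 6.08 to 14.9 FPKM. They were the only 2 separated of 15 tested clock genes, of which 9 were higher and 6 lower, with a median of 0.08. After TPM, median-of-ratios or quantile scaling 1 of the 15 was separated. The time of day at which tissue was taken is not in the labels used here.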
